A study of Mus musculus with 14 samples.

Results

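The genes described here are 45 homeobox transcription factors with known or likely roles in the cerebellum, and they were followed in RNA sequencing (RNA-seq) of mouse granule neuron progenitors (GNPs). They were taken as a list of named genes, and all 45 were found among the 41381 genes of the expression table. Of these, 36 had a TPM (the share of a gene among all transcripts, corrected for transcript length) of 1 or more in 4 or more libraries and entered the tests, as did 17325 genes in all. GNPs were isolated on a percoll gradient from cerebella at postnatal day 7, from pups of unrecorded sex. Libraries labelled WT (n = 5) carried "Chd7 wild type" or "Atoh1-Cre negative" as genotype. Those labelled Het (n = 5) were "Chd7 het mutant" or Atoh1-Cre::Chd7 f/+, and those labelled Hom (n = 4) "Chd7 hom mutant" or Atoh1-Cre::Chd7 f/f. The strain was written C56Bl6/J in the first 7 libraries and C57BL/6 in the later ones. Atoh1-Cre is active in the rhombic lip lineage, which holds granule cells and other excitatory neurons, so cells of other lineages in the preparation keep Chd7, and the study considered recombination probably less efficient in the posterior lobe. The question asked of each homeobox gene was whether its level differs with loss of 1 or both copies of Chd7, which encodes an ATP-dependent chromatin remodeller.

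Homeobox genes encode proteins that bind DNA through a homeodomain, many of them at sites with a TAAT core. In the developing cerebellum they mark where a cell was born and what it becomes. Pax6, Barhl1, Meis1 and Meis2 belong to the excitatory lineage of the rhombic lip that gives rise to granule cells, whereas Lhx1 and Lhx5 act in the inhibitory Purkinje cells, which arise from the ventricular zone. Meis, Pbx and Tgif proteins are among those of the TALE class. Meis and Pbx proteins bind DNA with other homeodomain proteins, and Tgif proteins repress transcription.

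The libraries were sequenced in 2 batches, given in the methods of the study, with 8 libraries in batch 1 (WT 1 to 3, Het 1 to 3, Hom 1 and 2) and 6 in batch 2. The TPM of Chd7 itself did not follow the labels in batch 1, where its mean was 135 in WT and 179 in Hom, and was 238 in WT and 138 in Hom in batch 2. In Het it was 166 in batch 1 and 143 in batch 2. By qRT-PCR the study found less Chd7 transcript in Het and Hom GNPs than in WT. Gene-level TPM counts reads of all exons, and whether this plays a part was not tested. The directions given here rest on the labels. Granule lineage markers were abundant in every library, with a summed TPM of 1893 to 3110 over 7 genes, although Gabra6, a gene of mature granule neurons, stayed between 0 and 1.03. Nothing in the labels says that libraries of a genotype came from separate animals, so p-values measure the spread between these libraries, which may be technical. Of the 7 granule lineage markers, 6 were tested, and Neurod1 and Cbln1 fell in Hom at a limma adjusted p under 0.05. By this rule 1.41% of all genes were lower. Summed endothelial markers were at 22.8 to 190 TPM in WT, 19.0 to 403 in Het and 100.2 to 300.2 in Hom. Astroglial markers were at 365 to 1748 TPM in WT, 524 to 1074 in Het and 287 to 625 in Hom. The WT libraries split by batch: endothelial markers were at 22.8 to 31.5 TPM in WT 1 to 3 but 190 and 102 in WT 4 and WT 5. Astroglial markers were at 1099 to 1748 TPM in WT 1 to 3 but 813 and 365 in WT 4 and WT 5. No marker of either kind was called in Het or Hom. Choroid plexus markers reached 502 TPM in WT 1. The part of these cells in the values of the homeobox genes was not tested. The depth of each library cannot be recovered from TPM. WT 5 stood apart among the homeobox genes, being the highest of the 5 WT libraries for 21 of the 36 tested members (58.3%), against 24.1% of all tested genes.

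Of the 45 members, 35 matched entries of the RefSeq promoter table (GRCm38.p6). The 250 bases upstream of the annotated start are shown for the 2 members that fell in Hom, Barhl2 and Lhx1, and for Barhl1, the close relative of Barhl2 that did not. Each is written 5′ to 3′ on the strand of its gene, and capitals mark the E-box CANNTG, bound by factors such as Atoh1 and Neurod1, and the TALE motif TGACAG on either strand. The windows are chr5:106458167-106458416 (minus strand) for Barhl2, chr2:28916669-28916918 (minus strand) for Barhl1 and chr11:84525535-84525784 (minus strand) for Lhx1.
Barhl2: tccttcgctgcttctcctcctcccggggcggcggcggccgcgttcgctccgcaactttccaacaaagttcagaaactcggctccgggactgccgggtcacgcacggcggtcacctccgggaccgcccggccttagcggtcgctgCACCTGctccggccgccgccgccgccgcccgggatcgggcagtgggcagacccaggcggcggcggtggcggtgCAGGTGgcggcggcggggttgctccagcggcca
Barhl1: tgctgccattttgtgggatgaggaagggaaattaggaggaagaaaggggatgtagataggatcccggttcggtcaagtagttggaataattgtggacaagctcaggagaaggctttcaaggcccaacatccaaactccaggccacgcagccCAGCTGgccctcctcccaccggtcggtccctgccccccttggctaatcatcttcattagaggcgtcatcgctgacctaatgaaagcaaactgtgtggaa
Lhx1: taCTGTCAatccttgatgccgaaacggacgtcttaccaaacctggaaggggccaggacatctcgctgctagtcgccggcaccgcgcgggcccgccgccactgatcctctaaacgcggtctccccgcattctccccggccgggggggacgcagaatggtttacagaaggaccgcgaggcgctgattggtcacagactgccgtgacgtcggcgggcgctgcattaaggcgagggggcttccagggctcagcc
The Barhl2 window held 2 E-boxes that start 106 and 33 bases before the start site, and 74.8% of its bases were G or C. The table has 2 start sites for Barhl1, and the window shown, that of the outer one, held 1 E-box at 99 bases before the start, with 52.8% G or C. The window of the inner start site, not shown, also held 1, at 15 bases. In the Lhx1 window (64.8% G or C) there was 1 TGACAG motif, on the opposite strand and 248 bases before the start site. An E-box is common: 66.2% of the 32851 promoter windows of this length held at least 1, and 15.9% held TGACAG, beside 24 (45.3%) and 7 (13.2%) of the 53 windows of the members. The homeodomain motif TAATTA occurred in 4.84% of all windows and in 1 window of the members, that of Uncx, where it lay 133 and 30 bases before the start site. These matches describe letters in the window and not binding.

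Pax6 was by far the most abundant homeobox gene of GNPs, with a WT mean of 706 ± 132 TPM (SD, n = 5), and it ranked 159th among all genes by this mean. Barhl1 followed at 315 ± 87.0 TPM (SD, n = 5), then Meis1 at 174 ± 20.2 TPM (SD, n = 5), Lhx1 at 160.2 ± 38.8 TPM (SD, n = 5) and Uncx at 135 ± 27.0 TPM (SD, n = 5). Cux1 and Zeb1 were the other members with a WT mean over 100 TPM. A further 21 members lay between 10 and 100 TPM, 8 between 1 and 10, and 9 under 1. Of the 44 neighbouring pairs in this order, only 5 had WT ranges that did not overlap: Pax6 and Barhl1, Barhl1 and Meis1, Tgif1 and Pou3f3, Irx1 and Pou3f4, and Zfhx4 and Lhx2. Of the 5 granule lineage factors, Pax6, Barhl1 and Meis1 held the first 3 places by mean, although the Meis1 range overlapped that of Lhx1, while Zeb1 came after Lhx1, Uncx and Cux1, and Meis2 was near the bottom at 0.856 TPM. The 9 members under 1 TPM in WT were Meis2, Lhx9, Zfhx3, Isl1, Pou3f1, Lmx1a, Lmx1b, Onecut1 and Six3, and these are the 9 that entered no test.

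**Figure D1:**
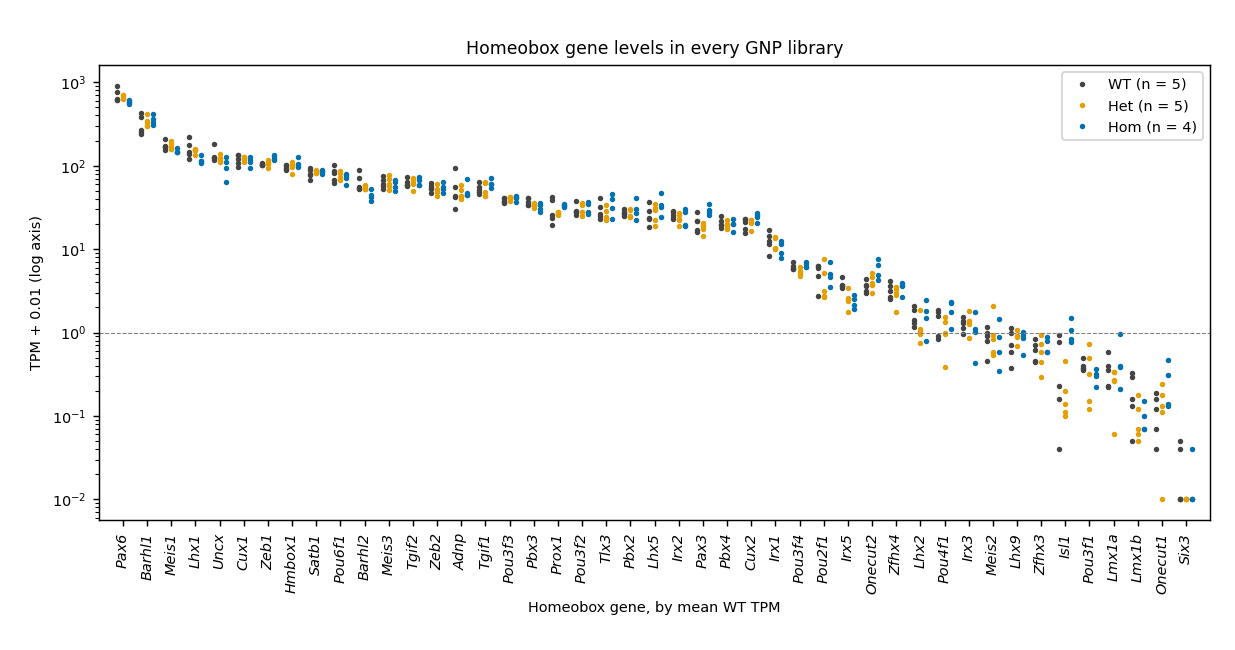
TPM of the 45 homeobox genes in each of 14 libraries, on a log axis after adding 0.01, with genes ordered by mean WT level and points coloured by the labelled genotype (5 WT, 5 Het, 4 Hom); the dashed line marks 1 TPM before that addition. Pax6 lies above all other members in every library, and the genotypes overlap for most genes.

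In libraries labelled Hom, 2 of the 36 tested members fell and none rose at a limma adjusted p under 0.05. Barhl2 and Lhx1 were the ones that fell. Over all 17325 genes, 1.41% were lower and 1.27% were higher by the same rule. At an unadjusted p under 0.05, 8 members were lower (Barhl2, Irx5, Uncx, Lhx1, Irx1, Pax6, Pbx3 and Meis1) and 5 were higher (Onecut2, Pax3, Cux2, Zeb1 and Hmbox1), against 6.42% and 8.51% of all genes. The median log2 change of the tested members was 0.031, beside 0.024 over all genes, and 22 of the 36 had the same sign in both batches. Changes are given as log2(TPM + 1), a scale that compresses differences of weakly expressed genes.

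**Figure D2:**
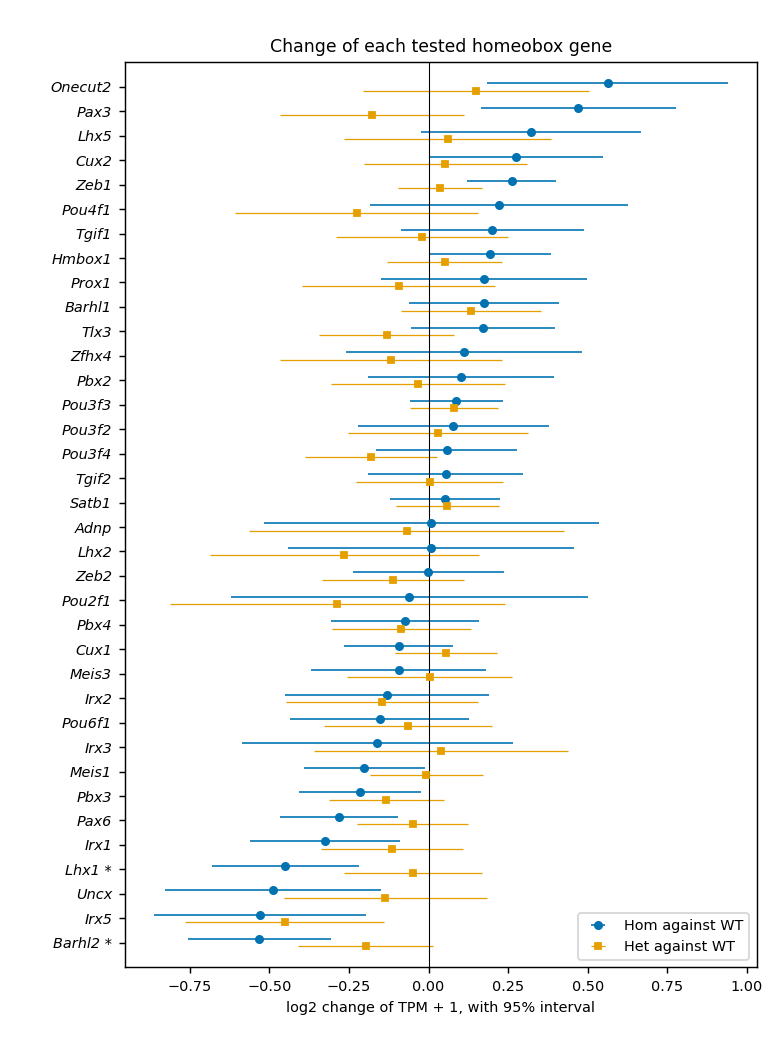
Log2 change of TPM + 1 with its 95% interval for the 36 tested homeobox genes, Hom against WT (blue circles) and Het against WT (orange squares), ordered by the Hom change; an asterisk marks a member called in Hom. Barhl2 and Lhx1 are the called members at the lower end, and most Het intervals cross 0.

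Pax6 (ENSMUSG00000027168, GRCm38 chromosome 2, 105668900 to 105697364, plus strand) directs granule progenitor migration and axon growth. Its TPM was 613, 628, 612, 766 and 911 in WT 1 to 5, 639, 697, 655, 674 and 705 in the Het libraries, and 575, 584, 613 and 551 in Hom 1 to 4. All Hom libraries lay below every WT library of their own batch, although Hom 3 was just above WT 3, of the other batch. In Hom the log2 change was -0.28 (SE 0.09, unadjusted p 0.0059, limma adjusted p 0.121), so it did not pass the test. It was -0.09 within batch 1 and -0.52 within batch 2, where WT 4 and WT 5 were high, and -0.19 without WT 5.

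Barhl1 is needed for granule cell survival and migration. The values were 237, 268, 254, 433 and 381 TPM in WT 1 to 5, 327, 303, 299, 414 and 344 in the Het libraries, and 362, 309, 416 and 338 in Hom 1 to 4. WT 1 to 3 were lower than every other library, and WT 4 was the highest of all. The log2 change in Hom of 0.17 (SE 0.11, unadjusted p 0.137, limma adjusted p 0.503) pooled 0.40 within batch 1 with -0.12 within batch 2. The change is therefore of opposite sign in the batches.

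Meis1, a TALE factor expressed in granule progenitors, was at 156, 172, 166, 166 and 208 TPM in WT 1 to 5, at 196, 183, 160.0, 158 and 166 in the Het libraries, and at 162, 148, 145 and 145 in Hom 1 to 4. The groups overlapped, with WT 5 and Het 1 highest. The log2 change in Hom was -0.20 (SE 0.09, unadjusted p 0.0383, limma adjusted p 0.299) and was -0.12 without WT 5 and -0.24 without Hom 1, the highest Hom library.

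Zeb1, a zinc finger and homeodomain repressor known to hold granule progenitors in an immature state, was at 101, 104, 103, 101 and 109 TPM in WT 1 to 5. Het 1 to 5 had 118, 103, 110.3, 94.1 and 107 TPM, and Hom 1 to 4 had 135, 116, 120.3 and 125. Every Hom library was above every WT library, and the Het libraries spread over both. In Hom the log2 change was 0.26 (SE 0.07, unadjusted p 0.00147), with a limma adjusted p of 0.0521 that just missed the threshold. Without WT 5, Het 4 or Hom 2 the adjusted p was 0.0462, 0.0391 and 0.036, and without Hom 1 it was 0.171. The change was similar in both batches, at 0.28 and 0.23. Meis2 stayed between 0.34 and 2.05 TPM in the 14 libraries and was not tested.

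**Figure D3:**
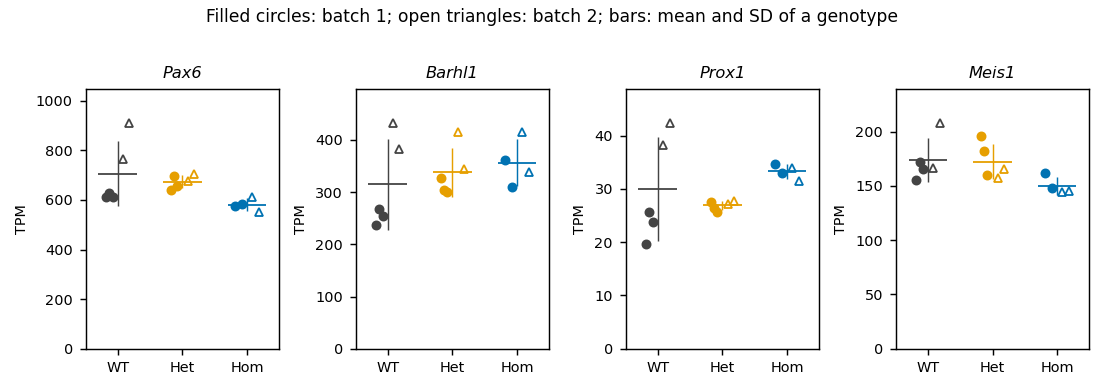
TPM of Pax6, Barhl1, Prox1 and Meis1 in each library by genotype (5 WT, 5 Het, 4 Hom), with batch 1 as filled circles, batch 2 as open triangles, and bars for the genotype mean and SD. The WT libraries of batch 2 lie above those of batch 1 for Pax6, Barhl1 and Prox1, while the Het and Hom libraries of both batches lie closer together.

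Barhl2 (ENSMUSG00000034384, GRCm38 chromosome 5, 106452523 to 106458166, minus strand), the relative of Barhl1 known from neurons of the retina, spinal cord and diencephalon, gave the lowest p of the 36 members in Hom. Its TPM was 53.4, 52.3, 55.0, 71.4 and 89.1 in WT 1 to 5, 52.4, 52.3, 53.1, 57.2 and 58.6 in the Het libraries, and 45.2, 38.2, 52.3 and 41.9 in Hom 1 to 4. Each Hom library was below every WT library of its own batch, and across batches Hom 3 and WT 2 had the same value to 3 digits. The mean was 64.3 ± 15.9 TPM in WT (SD, n = 5) and 44.4 ± 6.0 TPM in Hom (SD, n = 4). The log2 change was -0.53 (SE 0.10, limma adjusted p 0.0139), a fold of 0.692 in TPM + 1. It was -0.36 within batch 1 and -0.76 within batch 2, and neither batch alone passed the test, with adjusted p of 0.113 and 0.193. The call was also lost with no batch term (adjusted p 0.110), with the replicate number as a block (0.0797) and with only WT and Hom in the fit (0.0618). Without WT 5 the change was -0.43 (adjusted p 0.0202), and with any single library left out the adjusted p lay between 0.0175 and 0.0494. Barhl2 therefore fell in Hom while Barhl1, at a mean of 356 ± 45.1 TPM in Hom (SD, n = 4), did not pass the test.

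**Figure D4:**
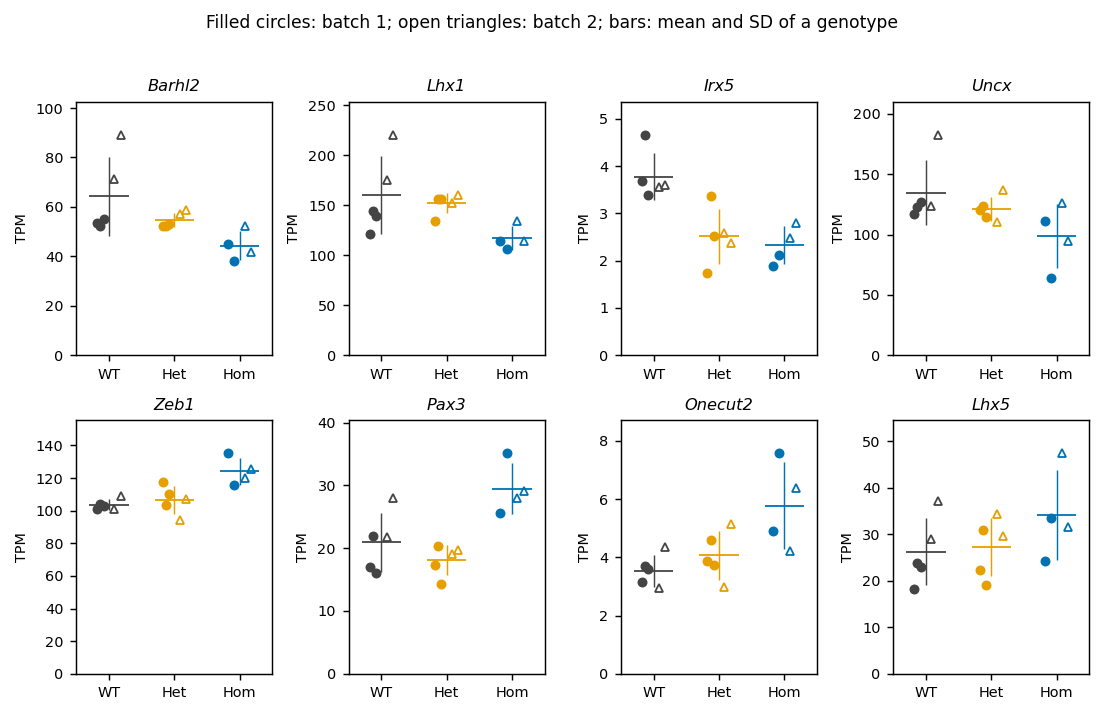
TPM of 8 homeobox genes in each library by genotype (5 WT, 5 Het, 4 Hom), with batch 1 as filled circles, batch 2 as open triangles, and bars for the genotype mean and SD; each vertical axis starts at 0. Irx5 and Zeb1 have no overlap between WT and Hom libraries, whereas Barhl2 and Lhx1 separate only within a batch.

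Lhx1 and Lhx5 are LIM homeodomain factors that act together in Purkinje cell differentiation. Lhx1 (ENSMUSG00000018698, GRCm38 chromosome 11, 84518284 to 84525535, minus strand) was at 122, 144, 140, 175 and 220.3 TPM in WT 1 to 5, at 135, 156, 156, 152 and 160.4 in the Het libraries, and at 114, 106, 134 and 114 in Hom 1 to 4. Hom libraries lay below every WT library of their batch, but Hom 3 was above WT 1 of the other batch. The mean was 117 ± 11.8 TPM in Hom (SD, n = 4), and the log2 change was -0.45 (SE 0.11, limma adjusted p 0.0408), a fold of 0.732. The call depended on single libraries. It held in 4 of the 14 fits that left out 1 library (WT 1, Het 2, Het 3 or Het 4), and was lost without WT 2, WT 3, WT 4, WT 5, Het 1, Het 5 or any 1 of the 4 Hom libraries, with adjusted p between 0.053 and 0.13. The change itself ranged from -0.51 to -0.35 in these fits, and was -0.29 within batch 1 and -0.67 within batch 2.

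Lhx5 took the opposite sign. It had 18.3, 23.9, 22.9, 28.9 and 37.2 TPM in WT 1 to 5, 22.3, 30.9, 19.2, 34.3 and 29.5 in the Het libraries, and 24.2, 33.5, 47.4 and 31.7 in Hom 1 to 4. Hom 3 was the highest library, and the groups overlapped. Its log2 change in Hom was 0.32 (SE 0.16, unadjusted p 0.0664, limma adjusted p 0.377), so that no change was shown at this spread.

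Levels of Purkinje cell markers were set beside both genes. The summed TPM of 8 markers was 152 to 196 in WT 1 to 3, but 53.6 and 57.3 in the WT libraries of batch 2, 45.4 to 93.9 in Het and 38.6 to 59.6 in Hom. Of the 7 markers tested, 1 fell in Hom (Pcp4), and the median log2 change was -0.94. In Het none was called, and the median was similar at -0.91. Pcp2 and Calb1 stayed at or under 2.05 TPM in WT 4 and WT 5, where Lhx1 was highest, and Pcp2 was 18.5 to 30.6 TPM in WT 1 to 3. Pcp4, Car8, Itpr1 and Skor2 were also lower in WT 4 and WT 5 than in WT 1 to 3. Rora was not, at 9.49 and 10.88 TPM against 8.05 to 9.15 TPM, and Foxp2 overlapped. Within batch 2, where Lhx1 had its larger difference, the marker sum was 53.6 and 57.3 TPM in WT and 38.6 and 47.4 TPM in Hom. Much of this was Pcp4, at 26.6 and 22.8 TPM in WT 4 and WT 5 and 12.3 and 14.3 in Hom 3 and Hom 4. Rora was also lower in these Hom libraries, at 7.09 and 8.39 TPM. Itpr1 was higher in them, at 10.53 and 12.77 TPM against 8.88 and 9.94 in WT, and the other markers overlapped. In WT 4 and WT 5, Lhx1 alone (175 and 220.3 TPM) was above the sum of the 8 markers. The parts of Purkinje cell RNA and of inhibitory interneuron RNA in the Lhx1 and Lhx5 values were not tested. Skor2 was at 0 in 7 of 14 libraries and at most 0.54 TPM. In these bulk libraries fewer cells of a type and less RNA per cell cannot be told apart.

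**Figure D5:**
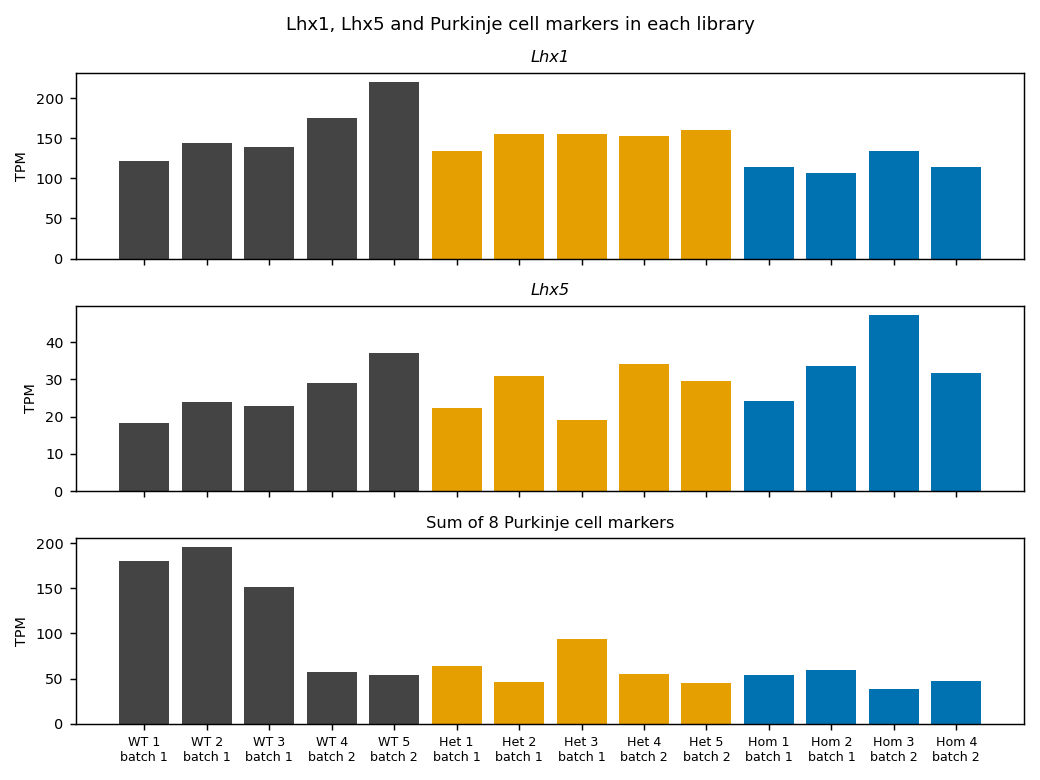
TPM of Lhx1, of Lhx5 and of the sum of 8 Purkinje cell markers, 1 bar per library (WT grey, Het orange, Hom blue), with the batch under each name. The marker sum is highest in WT 1 to 3, whereas Lhx1 is highest in WT 4 and WT 5.

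Genes of other rhombic lip derivatives, cerebellar nuclei, roof plate and neighbouring regions formed the largest group, with 11 members, of which 6 were tested and 1, Barhl2, was called. Uncx, a paired-type factor best known from somite patterning, was at 117, 123, 127, 124 and 183 TPM in WT 1 to 5. Het 1 to 5 had 120.4, 124, 114, 110.3 and 137 TPM, and Hom 1 to 4 had 111, 64.0, 126 and 94.4. Hom 2 was the lowest library and WT 5 the highest, with Hom 3 inside the WT range. The log2 change in Hom was -0.49 (SE 0.16, unadjusted p 0.00809, limma adjusted p 0.144), and it was -0.31 without Hom 2 and -0.39 without WT 5.

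Pax3 (ENSMUSG00000004872, GRCm38 chromosome 1, 78101267 to 78197134, minus strand), a paired-type factor of dorsal neural progenitors, was at 17.1, 21.9, 16.1, 21.8 and 27.9 TPM in WT 1 to 5, at 17.3, 20.3, 14.4, 19.1 and 19.7 in the Het libraries, and at 25.6, 35.1, 28.0 and 29.2 in Hom 1 to 4. Hom libraries were above every WT library of their batch and above every Het library. Against WT the log2 change was 0.47 (SE 0.14, unadjusted p 0.00555, limma adjusted p 0.117), at 0.69 within batch 1 and 0.20 within batch 2. Without Hom 2 it was 0.33. The summed TPM of 7 inhibitory interneuron markers was 82.7 to 136 in WT, 79.6 to 131 in Het and 87.0 to 182 in Hom, highest in Hom 2, and none of the 7 was called. Its part in the Pax3 values was not tested.

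Tlx3, a factor of excitatory neurons, ranged from 22.5 TPM (Het 2) to 45.5 TPM (Hom 3). Pou4f1, a POU factor of sensory and midbrain neurons, ranged from 0.38 to 2.29 TPM, and Lhx2, which acts in forebrain and eye, from 0.74 to 2.45. Of the untested members of this group, Lhx9 reached 1.13 TPM and Lmx1a, a roof plate factor, 0.95. Isl1, a factor of motor and sensory neurons, lay between 0.75 and 1.48 TPM in Hom and between 0.03 and 0.93 in WT. Lmx1b stayed at or under 0.32 TPM and the forebrain gene Six3 at or under 0.04, and Six3 was listed at 0 in 11 of 14 libraries.

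Iroquois genes pattern the neural plate along its axes. All 4 were tested and none was called. Irx5 (ENSMUSG00000031737, GRCm38 chromosome 8, 92357625 to 92376286, plus strand) was at 3.68, 4.66, 3.38, 3.56 and 3.61 TPM in WT 1 to 5, at 1.73, 3.37, 2.52, 2.58 and 2.38 in the Het libraries, and at 1.89, 2.12, 2.49 and 2.80 in Hom 1 to 4. Every Het and every Hom library was below every WT library, the narrowest gap being between Het 2 and WT 3. For Hom this gave a log2 change of -0.53 (SE 0.15, unadjusted p 0.00448, limma adjusted p 0.103), and of -0.46 (adjusted p 0.207) without WT 2, the highest library. Irx1 had a WT mean of 12.8 ± 3.2 TPM (SD, n = 5) and a Hom mean of 10.2 ± 2.2 TPM (SD, n = 4). Its log2 change in Hom was -0.33 (SE 0.11, unadjusted p 0.0109, limma adjusted p 0.169), and only without WT 3, the lowest WT library, did it pass the test (-0.41, adjusted p 0.0409). Irx2 ranged from 18.8 to 30.1 TPM in the 14 libraries and Irx3 from 0.42 to 1.8, and the difference of Irx3 between Hom and WT was of opposite sign in the batches.

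The 6 members grouped here as TALE cofactors were expressed throughout. Pbx3, which binds DNA together with Hox and Meis proteins, had a mean of 37.2 ± 3.6 TPM in WT (SD, n = 5), 33.7 ± 1.9 TPM in Het (SD, n = 5) and 31.8 ± 3.5 TPM in Hom (SD, n = 4). Between Hom and WT the log2 change was -0.21 (SE 0.09, unadjusted p 0.0308, limma adjusted p 0.272). Its relatives Pbx2 and Pbx4 lay at 22.3 to 40.9 and 16.1 to 24.98 TPM, Meis3 at 50.2 to 76.8 TPM, and the repressors Tgif1 and Tgif2 at 43.6 to 70.3 and 49.2 to 73.6 TPM. None of the 6 was called.

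POU factors act in neural progenitors and neurons, and 5 of the 6 were tested with none called. Pou6f1 was the most abundant, at 59.2 to 102 TPM, followed by Pou3f3 at 35.4 to 43.5 and Pou3f2 at 24.9 to 38.0. Pou3f4 was at 4.80 to 7.07 TPM, and the widely expressed Pou2f1 at 2.68 to 7.5. Pou3f1 stayed at or under 0.72 TPM. Pou3f3 varied little: its WT, Het and Hom means were 38.4 ± 2.5 TPM (SD, n = 5), 40.6 ± 1.9 TPM (SD, n = 5) and 41.0 ± 2.9 TPM (SD, n = 4).

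Among CUT and SATB genes, Onecut2, a factor linked to neuronal gene expression, had the highest change of the 36 members in Hom. It was at 3.14, 3.70, 3.59, 2.94 and 4.35 TPM in WT 1 to 5, at 3.87, 4.59, 3.74, 2.97 and 5.15 in the Het libraries, and at 4.91, 7.57, 4.23 and 6.37 in Hom 1 to 4. Hom 3 was below WT 5, so the ranges overlapped. The log2 change was 0.56 (SE 0.18, unadjusted p 0.00673, limma adjusted p 0.130). Cux2, a factor of upper-layer cortical neurons, differed by 0.28 on the log2 scale (SE 0.13, unadjusted p 0.0475, limma adjusted p 0.327), with 0.47 within batch 1 and 0.04 within batch 2. Cux1 ranged from 94.7 to 134 TPM and the chromatin organiser Satb1 from 66.6 to 92.9, and Onecut1 reached 0.46 TPM.

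Of the zinc finger homeobox and remaining genes, Hmbox1, which also binds telomeric DNA, had a log2 change in Hom of 0.19 (SE 0.09, unadjusted p 0.0492, limma adjusted p 0.332) between means of 94.8 ± 5.8 TPM in WT (SD, n = 5) and 108 ± 13.5 TPM in Hom (SD, n = 4). Zeb2 ranged from 42.8 to 63.9 TPM, Zfhx4 from 1.74 to 4.14 and Zfhx3 from 0.28 to 0.92. Prox1, which promotes cell cycle exit, and Adnp, a chromatin factor, differed between batches in WT. They are named because of these values. Prox1 was at 19.6, 25.7, 23.8, 38.3 and 42.4 TPM in WT 1 to 5 but only at 25.6 to 27.8 in Het and 31.6 to 34.7 in Hom. Adnp ranged from 29.9 TPM in WT 1 to 93.0 in WT 5.

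The difference of the Hom change between the batches was tested across genes as an interaction. No member passed at an adjusted p under 0.05. Without adjustment, the change was more negative in batch 2 at p under 0.05 for 7 members (Adnp, Prox1, Pou6f1, Barhl1, Pax6, Barhl2 and Satb1) and more positive for 1 (Pbx2), against 8.85% and 8.35% of all genes. The largest was Adnp at -1.16 (SE 0.38, unadjusted p 0.0115, limma adjusted p 0.176), followed by Prox1 at -0.84 (SE 0.16, unadjusted p 2.92e-04, limma adjusted p 0.127). For Barhl1 and Pax6 it was -0.52 (SE 0.17) and -0.43 (SE 0.12). The WT mean was 1.61 times higher in batch 2 than in batch 1 for Barhl1, 1.36 times for Pax6 and 1.75 times for Prox1, while the Hom ratios were 1.12, 1 and 0.967. Sequencing and the WT animals or preparations of each batch cannot be told apart.

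In libraries labelled Het, no member was called by limma, and 0.00577% of all genes were. At an unadjusted p under 0.05, 1 member was lower, Irx5, and none was higher, against 2.88% and 3.2% of all genes. The log2 value of Irx5 was -0.45 (SE 0.15, unadjusted p 0.0082, limma adjusted p 0.544), beside -0.53 in Hom. Both comparisons use the same WT libraries and are not independent. The Het changes of the granule lineage factors were -0.05 for Pax6 (95% interval -0.22 to 0.12), 0.13 for Barhl1 (-0.09 to 0.35), -0.01 for Meis1 (-0.19 to 0.17) and 0.04 for Zeb1 (-0.10 to 0.17). Those of the LIM homeodomain genes were -0.05 for Lhx1 (-0.26 to 0.17) and 0.06 for Lhx5 (-0.27 to 0.39).

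Hom libraries were also set against Het libraries, in the same fit, where the WT libraries enter through the batch term and the estimate of the spread. No member was called, against 0.427% of all genes. At an unadjusted p under 0.05, 5 members were lower in Hom (Lhx1, Uncx, Barhl2, Pax6 and Meis1) and 6 were higher (Pax3, Pou4f1, Onecut2, Tlx3, Pou3f4 and Zeb1), against 3.13% and 3.05% of all genes. Pax3 gave the lowest p, with a log2 difference of 0.65 (SE 0.14, unadjusted p 5.16e-04, limma adjusted p 0.0801), and it was 0.77 within batch 1 and 0.53 within batch 2. Lhx1 was lower by -0.40 (SE 0.11, adjusted p 0.187) and Barhl2 by -0.33 (SE 0.10, adjusted p 0.350), both with similar values in the batches. For Pax6 the difference was -0.23 (SE 0.09, adjusted p 0.566), at -0.19 and -0.25 within the batches. Zeb1 was higher by 0.22 (SE 0.07, adjusted p 0.278) and Tlx3 by 0.30 (SE 0.11, adjusted p 0.487). The differences of Uncx, Meis1, Pou3f4, Onecut2 and Pou4f1 lay between -0.35 and 0.45, with adjusted p over 0.72.

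Without a linear model, 4 members had every Hom library below every WT library of its batch (Barhl2, Irx5, Lhx1 and Pax6), against 3.56% of all genes, and 2 had every Hom library above (Pax3 and Zeb1), against 5.44%. The study used a rank test over the 3 genotypes, and an exact Kruskal-Wallis test of this kind on batch-removed values at an unadjusted p under 0.01 gave the same 4 members lower in Hom and 2 higher, Pax3 and Pou3f4, against 2.21% and 2.42% of all genes. The exact p was 3.65e-04 for Barhl2, 0.00232 for Irx5, 0.00849 for Lhx1 and 0.00897 for Pax6, and 0.00502 for Pax3. Batch had first been removed by a linear model, a step that the count of arrangements does not take into account, so these values are approximate. For Pou3f4 the exact p of 0.00965 came with a log2 change of only 0.06 between Hom and WT, since its Het libraries were lowest, with a mean of 5.3 ± 0.5 TPM (SD, n = 5) beside 6.2 ± 0.5 TPM in WT (SD, n = 5) and 6.5 ± 0.4 TPM in Hom (SD, n = 4).

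Homeobox genes outside the 45 served as the wider family. Of 136 found, 45 were tested, and none of the 39 Hox genes reached the filter. At a limma adjusted p under 0.05, 2 of the 45 tested fell and 4 rose in Hom, against 1.41% and 1.27% of all genes. Otx1, a regional factor of fore- and midbrain also present in the external granule layer, fell from 25.5 ± 9.2 TPM in WT (SD, n = 5) to 3.5 ± 0.8 TPM in Hom (SD, n = 4), or by 2.55 on the log2 scale (SE 0.19, limma adjusted p 1.62e-05). Its relative Otx2 rose from 80.5 ± 14.9 TPM (SD, n = 5) to 128 ± 12.01 TPM (SD, n = 4), or by 0.66 on the log2 scale (SE 0.14, limma adjusted p 0.0206). Msx2 fell by 0.84 on the log2 scale, and En1, an organiser gene of midbrain and cerebellum, Tshz2 and Dbx1 rose by 0.63, 0.50 and 1.06. None of the 36 tested members had a change as large as that of Otx1.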

How the data were processed

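RNA-seq was made from total RNA of GNPs in 14 libraries. The authors aligned single-end reads with Bowtie 1.0.0 to Ensembl transcripts of mm10 and estimated levels with RSEM 1.2.15, and deposited gene-level TPM values. Columns headed as controls were taken as WT of the same number. Symbols and positions come from GENCODE on GRCm38. The values were tested as log2(TPM + 1) for genes at 1 TPM or more in 4 or more libraries, in limma 3.58.1 under R 4.3.3 (moderated with a trend on mean level) with terms for genotype and batch, two-sided, with Benjamini-Hochberg adjustment over 17325 genes and a threshold of 0.05. The code was tested on simulated data. The exact Kruskal-Wallis test used all 252252 arrangements on values from removeBatchEffect. ComBat, used by the study, was not run. Depth per library is unknown from TPM, so no counting interval is given. Members and lists were chosen with earlier results of these data known. A log2 change is given for members with an unadjusted p under 0.05 in any comparison. It is also given for the tested granule lineage factors, for Lhx1 and Lhx5, and for exceptions named as such. Alternatives covered the pseudocount, filter, scaling, batch term, replicate number, genotypes in the fit, and each library left out.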

Additional observations from a re-analysis of the deposited data

Results flagged for a closer look

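In 5 of 108 groups tested (36 members in 3 genotypes), 1 library lay apart from the rest of its genotype by Dixon's criterion, which chance meets in about 1 of 20 groups. WT 5 was high for Uncx (182.6 TPM, the next WT library being at 127 TPM) and for Pou3f2 (37.95 TPM, next 28.9 TPM). Hom 1 was high for Meis1 (162.18 TPM, next 148 TPM) and for Adnp (68.49 TPM, next 47.6 TPM). WT 2 was high for Irx5 (4.66 TPM, next 3.68 TPM). The changes without the library in question are given with Uncx, Meis1 and Irx5, and are not given for Pou3f2 and Adnp.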

How the results depend on the processing

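Of 820 values of 33 results under alternatives, 774 kept their direction and their side of the threshold. Most did so by staying uncalled, since only 2 of these results, Barhl2 and Lhx1 in Hom, were called in the main fit. In 21 of the values a call was lost, all of them for these 2 results. The count of members lower in Hom (2) was 1 with no filter beyond TPM above 0. It was 0 with no batch term, with the replicate number as a block and with only the WT and Hom libraries in the fit. It was also 0 in batch 1 alone and in batch 2 alone. With single libraries left out it ranged from 1 to 2. The Kruskal-Wallis test over the 3 genotypes gave 4, but at an unadjusted p under 0.01, which is not a like threshold. The count of members higher in Hom (0) was 1 with a mean TPM of at least 5 and with quantile normalization (Zeb1, adjusted p 0.0484 and 0.042). It was 1 with the replicate block (Onecut2, 0.75, adjusted p 0.0454), and ranged from 0 to 1 with single libraries left out. The Kruskal-Wallis test, at its unadjusted threshold, gave 2, Pax3 and Pou3f4, of which Pou3f4 was lowest in Het. With the block, Barhl2 was at -0.52 (adjusted p 0.0797) and Lhx1 at -0.41 (0.160), but the numbers were not taken as pairs: of 13 same-numbered pairs, 9 had correlated deviations from their group means over 0.1 (range -0.117 to 0.34) and 3 after removal of batch (range -0.235 to 0.264), and 3 of the 14 libraries correlated best with their own number. Irx5 passed under quantile normalization (adjusted p 0.0428). The causes were not tested, except that a single batch holds fewer libraries.

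Among these 33 results, signs turned for Barhl1 in Hom in batch 2 alone (-0.12), and otherwise for Het changes only. For members outside them only the within-batch values were looked at. Het changes that turned were Barhl1 (-0.11), Lhx5 (-0.043) and Zeb1 (-0.063) in batch 2 alone, and Lhx1 (0.14), Meis1 (0.12) and Pax6 (0.10) in batch 1 alone. Lhx5 (-0.0090) and Meis1 (0.0020) also turned with Het 3 in batch 2, the libraries it was deposited with. With single libraries left out, the Het change ranged from -0.12 to 0.047 for Lhx1, -0.046 to 0.13 for Lhx5, -0.056 to 0.073 for Meis1 and -0.081 to 0.032 for Pax6. None of these Het changes passed the test in any fit. The number of libraries, 4 or 5 a genotype in 2 batches, limits the size of change that can be shown.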
